A study of Mus musculus with 577 samples.

Results

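Granulosa cells that had been dissociated by pipetting were compared by whether they had come away attached to an oocyte. The members are the 35 libraries of single granulosa cells whose sample names hold the word RawPair, out of 577 samples in the series. The submitters labelled 14 of them Neighboring, which are the cells attached to oocytes, and 21 Non-neighboring, which are other granulosa cells of cumulus-oocyte complexes. All came from 1 ovary of 1 8-wk-old mouse killed in proestrus of a natural cycle without superovulation, from fully grown follicles opened in medium with a cAMP analogue that both groups and the oocytes shared. Each cell was washed and its cDNA amplified with Smart-seq2, and the 3′ ends of the cDNA were sequenced. The other ovary of the mouse was frozen, and its sections gave 70 laser-captured (LCM) granulosa cells, of which 35 were labelled Neighboring and 35 Non-neighboring. Those sections were fixed with alcohol, and the LCM cells were lysed with a denaturing detergent and amplified with DRaqL-Smart-seq2. LCM and dissociated cells thus differ in fixation, lysis and amplification as well as in isolation. The strain, and the number of complexes that gave the cells, were not given in the sources used here.

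Cumulus granulosa cells surround the oocyte, send projections through the zona pellucida and are joined to the oocyte by gap junctions. The oocyte secretes GDF9 and BMP15, which are known to favour glycolysis and cholesterol synthesis in the cells around it and to hold back the steroid-making programme of mural cells, which line the follicle wall. That programme includes the LH receptor Lhcgr, the cholesterol side-chain cleavage enzyme Cyp11a1 and the 3β-hydroxysteroid dehydrogenase Hsd3b1. The comparison asks how cells in contact with the oocyte differ from their neighbours farther out.

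All 35 cells came from 1 mouse, so that each group of cells is 1 sample. No test was made and no p-value can be given, and the ranges and SDs below describe the spread between cells. Values are log2(RPM+1), where RPM scales each library to the same total of reads on protein-coding genes, and a difference is the mean over attached cells minus the mean over unattached cells. A gene counted as measured when it exceeded 4 on this scale in at least 1 of the 35 cells, which 13374 of 22060 protein-coding genes did. It was taken as past the fold when the difference exceeded 1.8, by size alone.

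The libraries were shallow and the groups differed in depth and complexity. Attached cells had 12748 to 282419 reads with a median of 87883.5, and unattached cells 31715 to 353959 with a median of 132194. Genes with at least 1 read numbered 4908 ± 1424 (SD, 14 cells) in attached and 6607 ± 1641 (SD, 21 cells) in unattached cells. After thinning to 50000 reads the numbers were 4332 ± 1549 in 13 attached and 5717 ± 1200 in 20 unattached cells. Cells with at least 5000 genes numbered 6 and 18. The RawPair number, whose meaning was not given in the sources used here, runs from 1 to 7 in granulosa cells and largely goes with the group. Number 1 held 10 unattached cells, number 2 held 5 attached cells, number 4 held 3 unattached cells and number 7 held 2 attached cells. Number 3 held 3 attached and 2 unattached cells, number 5 held 3 and 5, and number 6 held 1 of each. Oocyte libraries carried the numbers 1, 2, 4 and 6, 1 library each, and 10 more carried a number without granulosa cells. The median number of genes was 7937.5 in number 1 and 3509 in number 2, while it was 6644 in attached and 6065 in unattached cells of number 5. Across all measured genes the median difference was -0.59, and 2103 genes (15.7%) were lower and 53 genes (0.396%) higher past the fold in attached cells. The difference was above 0 for 26.3% and below 0 for 73.7% of genes. Of the 4167 genes with a group mean of at least 4, 1461 were lower and 23 higher past the fold, with a median of -1.37. Among cells with at least 5000 genes, 8.27% of all measured genes were lower and 3.4% higher past the fold. Averaged within numbers 3 and 5, the median was -0.18, with 14.2% lower and 5.3% higher, and with number 6 added 6.12% were lower and 12.7% higher. For that reason values within numbers 3 and 5 and in the LCM cells of the other ovary are set beside those over all cells for most of the gene lists and many of the genes. In the LCM cells 1.11% of genes were lower and 0.812% higher past the fold.

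**Figure D1:**
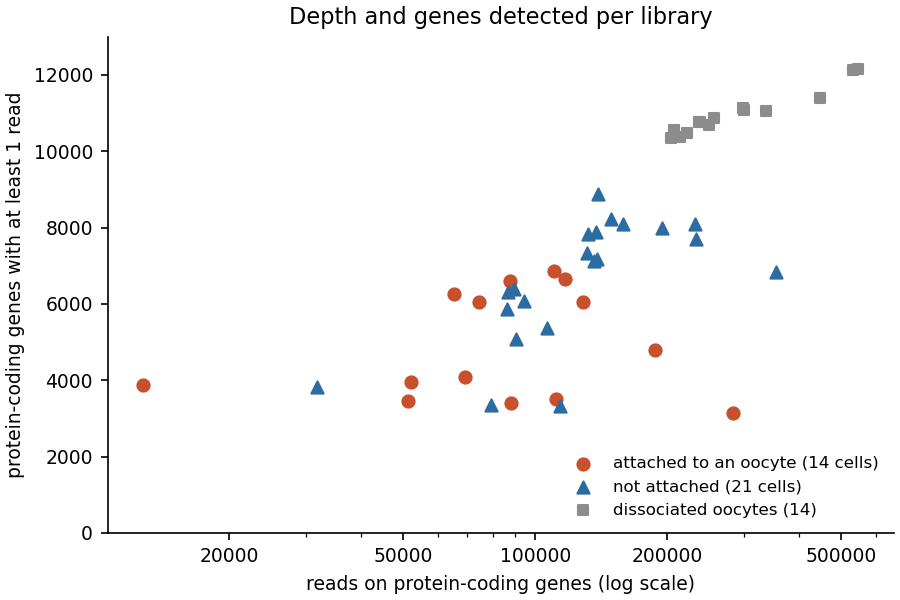
Protein-coding genes with at least 1 read (y axis) against reads on protein-coding genes (x axis, log scale) for each dissociated library. Circles are the 14 attached granulosa cells, triangles the 21 unattached ones and squares the 14 dissociated oocytes. Unattached cells reached 8889 genes and attached cells 6871, and all oocytes lay above both.

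The gene that separated attached from unattached cells by the largest difference was Hsd3b1 (chr3:98852194-98859794, minus strand of GRCm38). In attached cells its lowest, median and highest levels were 0, 3.58 and 8.69, and in unattached cells they were 6.23, 11.69 and 13.77. The ranges overlapped because 4 of the 5 attached cells of number 2 (7.56 to 8.69) reached the level of the unattached cells of numbers 4 and 5, while the other was at 3.54. The means were 3.99 ± 3.23 (SD, 14 cells) and 10.75 ± 2.32 (SD, 21 cells), a difference of -6.76. Reads were present in 10 of 14 attached and 21 of 21 unattached cells. Summed over cells, 80 reads gave 55.6 RPM (exact Poisson 95% interval 44.1 to 69.3) in attached cells, and 12958 reads gave 4449 RPM (4372 to 4526) in unattached cells. These intervals and all others below cover counting error only.

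Within each RawPair number that held both groups, every attached cell was below every unattached cell for Hsd3b1. In number 3, attached cells had 6.02, 3.63 and 0.00, and unattached cells 11.69 and 10.49. In number 5, attached cells had 3.33, 3.14 and 0.00, and unattached cells 10.16, 8.96, 8.52, 7.26 and 6.23. In number 6, the attached cell had 4.03 and the unattached cell 12.00. That attached cell was at 47.6% of an oocyte in oocyte transcripts, and the unattached one is described below as unlike the other granulosa cells. Such a complete order over numbers 3, 5 and 6 held for 6 of 13374 genes (0.0449%) in this direction. Over numbers 3 and 5 alone it held for 18 genes (0.135%). The difference was -7.70 among cells with at least 5000 genes, and it ranged from -7.12 to -6.45 when any 1 cell was left out. In the LCM cells of the other ovary the means were 0.84 with reads in 6 of 35 neighboring cells and 4.04 with reads in 20 of 35 non-neighboring cells, a difference of -3.20. Hsd3b6, a near relative whose reads could be shared with Hsd3b1, had 0 reads in attached cells and 16 in unattached cells, so the split between both genes is uncertain.

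Cyp11a1 (chr9:58006411-58027023, plus strand) had reads in 0 of 14 attached cells, which allows a share of up to 21.4% of such cells with a read. It had reads in 11 of 21 unattached cells, with a lowest, median and highest level of 0, 3.04 and 9.96 and a mean of 3.19 ± 3.39 (SD). All 3 unattached cells of number 4 held it, at 6.14 to 8.53, against 5 of 10 in number 1, 2 of 5 in number 5, 0 of 2 in number 3 and the single one of number 6. Summed over cells it was at least 30.6-fold lower in attached cells, taken against a floor of 3 counts over the group. Of the 186 reads, 79 lay in the unattached cell of number 6, described below as unlike the other granulosa cells, and without it the bound was 18.1-fold. The luteinizing hormone receptor Lhcgr (chr17:88716481-88791990, minus strand) also had no read in attached cells and reads in 10 of 21 unattached cells, 7 of them in number 1. Its summed level was at least 11.5-fold lower in attached cells, but 40 of the 70 reads lay in 1 unattached cell of number 4 and without it the bound was 5.14-fold. Neither gene had a read in the unattached cells of number 3. A gene without reads in any attached cell and with reads in 7 or more unattached cells was found 98 times (0.733%) among the measured genes. In LCM cells Cyp11a1 had reads in 4 and 10 of 35 cells and Lhcgr in 3 and 15 of 35, neighboring given first. The highest LCM levels, 12.51 for Cyp11a1 and 12.84 for Lhcgr, lay far above the others and were in the non-neighboring group. Theca and stroma markers summed to as much as 7755 RPM in that group, and no LCM cell was left out.

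The remaining members of the mural and steroidogenic list were less uniform. Star, which carries cholesterol into mitochondria, had 13 reads in 4 unattached cells and none in attached cells. Fdx1, the ferredoxin that passes electrons to CYP11A1, averaged 2.91 in attached and 6.96 in unattached cells, a difference of -4.05 over all cells, -2.47 within numbers 3 and 5 and -0.02 in LCM cells. Nppc, which encodes the natriuretic peptide CNP, had reads in 1 of 14 and 11 of 21 cells, with none in either group of numbers 3 and 5. The lipoprotein receptor Scarb1 differed by 0.07 only. Of the 7 measured members, 5 were lower past the fold and 0 higher, against 15.7% and 0.396% of all genes. Their median was -2.64, beside -0.59 for all genes and -1.37 for genes with a group mean of at least 4. Within numbers 3 and 5 the median of the list was -0.66 with 2 lower past the fold, against 14.2% of all genes. In LCM cells it was -0.74 with 1 lower past the fold, against 1.11%.

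The start regions of 3 genes of this list are shown, Hsd3b1 for its difference and Cyp11a1 and Lhcgr because no attached cell held a read of them. Their patterns over RawPair numbers were not alike, since Hsd3b1 was lower in attached cells of number 3, where the other two had no read in either group. Each is a RefSeq window on GRCm38.p6 of 300 bases, 250 before and 50 after an annotated start, for Hsd3b1 chr3:98859745-98860044 (minus strand), for Cyp11a1 chr9:58014702-58015001 (plus strand) and for Lhcgr chr17:88791965-88792264 (minus strand). Capitals mark AGGTCA, or TGACCT on the other strand, the core to which the orphan receptors Nr5a1 and Nr5a2 are known to bind.
Hsd3b1: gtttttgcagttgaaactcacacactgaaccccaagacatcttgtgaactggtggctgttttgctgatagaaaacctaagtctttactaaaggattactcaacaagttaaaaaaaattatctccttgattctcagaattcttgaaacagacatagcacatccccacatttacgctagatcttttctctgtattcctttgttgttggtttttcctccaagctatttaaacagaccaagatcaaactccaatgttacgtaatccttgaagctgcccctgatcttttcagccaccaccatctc
Cyp11a1: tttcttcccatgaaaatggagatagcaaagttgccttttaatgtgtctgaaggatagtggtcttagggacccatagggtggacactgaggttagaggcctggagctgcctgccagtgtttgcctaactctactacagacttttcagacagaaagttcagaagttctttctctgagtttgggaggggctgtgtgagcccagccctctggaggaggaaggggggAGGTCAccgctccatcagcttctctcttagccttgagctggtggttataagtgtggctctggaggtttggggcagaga
Lhcgr: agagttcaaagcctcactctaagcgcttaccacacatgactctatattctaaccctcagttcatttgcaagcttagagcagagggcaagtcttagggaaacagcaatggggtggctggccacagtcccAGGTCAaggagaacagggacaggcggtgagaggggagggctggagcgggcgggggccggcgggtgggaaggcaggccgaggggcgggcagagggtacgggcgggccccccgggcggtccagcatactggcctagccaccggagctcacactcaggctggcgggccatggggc
The Cyp11a1 window held 1 match at position 223 and the Lhcgr window 1 at position 129, while the Hsd3b1 window and that of a second annotated Cyp11a1 start (chr9:57997774-57998073) held none. The letters occur in 5340 of 32851 such windows (16.3%), so that a match is a description of the sequence and not a binding site.

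**Figure D2:**
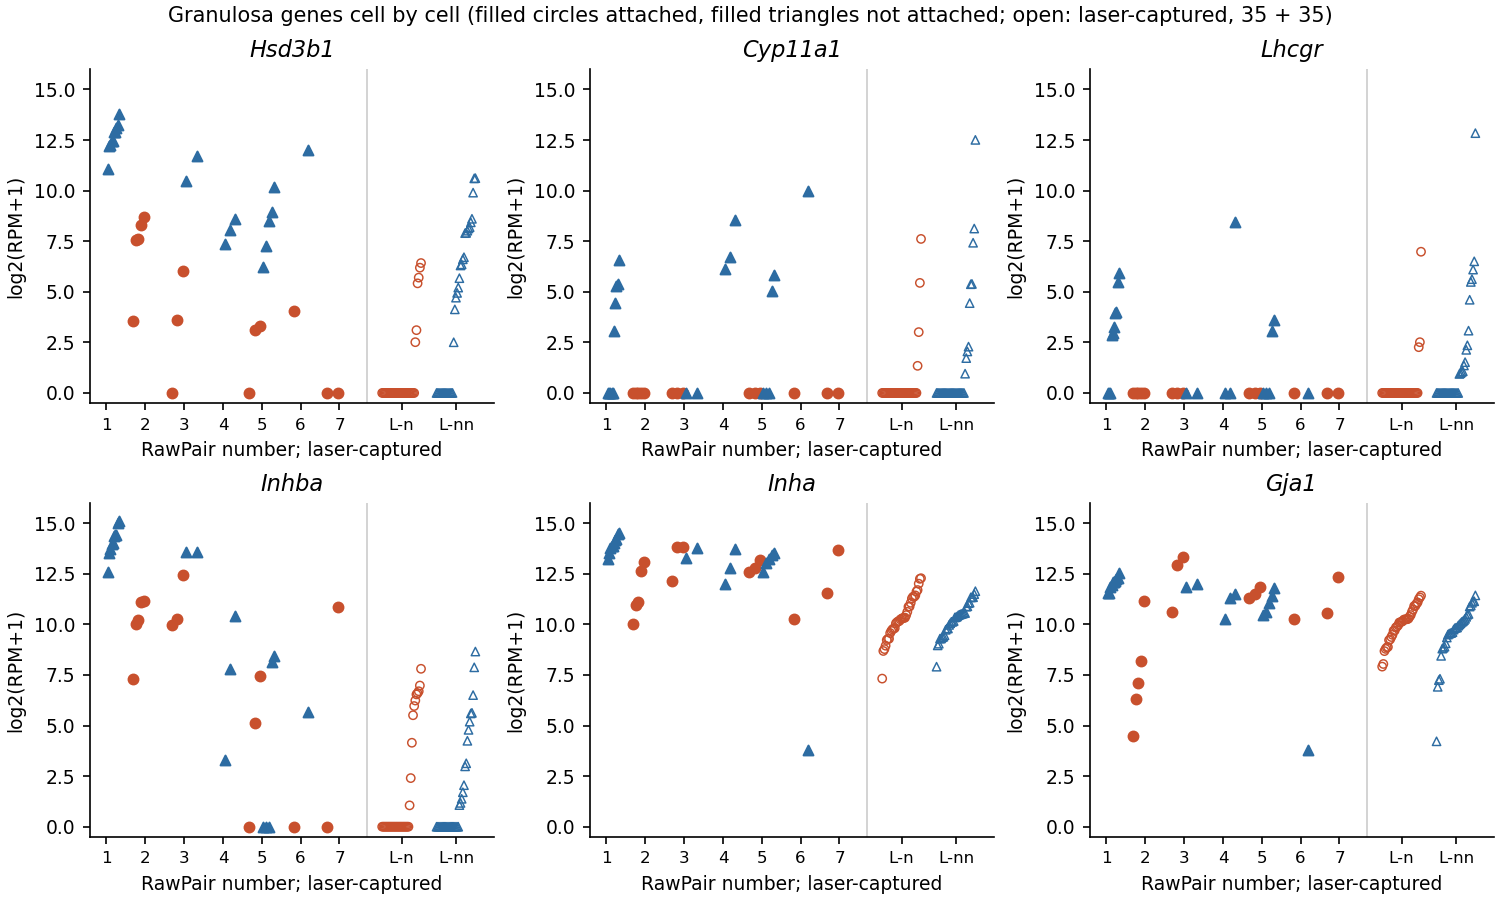
Levels of 6 granulosa genes, log2(RPM+1) on the y axis, with each point 1 cell, placed by RawPair number 1 to 7 and sorted by level within a number. Filled circles are attached and filled triangles unattached cells, and open symbols are LCM cells, neighboring (L-n) and non-neighboring (L-nn). Hsd3b1 is lower in attached cells in every number with both groups, of which number 6 holds 1 cell of each. Cyp11a1 and Lhcgr are at 0 in all 14 attached cells, and Inhba differs between RawPair numbers.

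Several genes of the granulosa identity list were present in all or most cells of both groups. Other members, such as Amh and Kitl, had reads in far fewer cells, as given below. Inha, the inhibin alpha subunit, had reads in all 35 cells, at 10.02, 12.62 and 13.84 (lowest, median, highest) in attached and 3.77, 13.54 and 14.52 in unattached cells. The gap junction protein Gja1 was likewise found in all 35 cells, at 4.48 to 13.33 and 3.77 to 12.54. The oestrogen receptor Esr2 had nearly equal means, 8.22 ± 2.08 (SD, 14 cells) and 8.27 ± 0.92 (SD, 21 cells). The activin antagonist follistatin, Fst, averaged 8.69 ± 2.61 and 10.36 ± 1.23. Of the 17 granulosa identity genes, 0 were above 0 in difference over all cells. Their median was -1.51, beside -1.37 for all genes with a group mean of at least 4. Lower past the fold were 5, against 15.7% of all measured genes and 1461 of the 4167 with such a mean. Within numbers 3 and 5 the median was -0.34, 2 were above 0 and 2 lower past the fold, a share near the 14.2% of all genes. In LCM cells it was -0.05, with 0 past the fold either way.

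A single unattached cell went against its label as a granulosa cell. The unattached cell of number 6, with 79237 reads and 3343 genes, had the lowest Inha of all cells, 3.77, and Gja1 at 3.77. It held the alcohol dehydrogenase Adh1 at 13.23, the smooth muscle actin Acta2 at 12.03 and Sfrp4, a secreted Wnt antagonist, at 11.41, of which the last had reads in 1 of the 20 other unattached cells. These 3 genes were chosen after its values were seen. Without this cell the difference was -6.70 for Hsd3b1, -2.85 for Cyp11a1 and -1.29 instead of -0.83 for Inha, and 2468 genes instead of 2103 were lower past the fold.

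Inhba, the activin and inhibin βA subunit, varied with RawPair number more than with attachment. Attached cells had 0, 10.00 and 12.46 as lowest, median and highest level, and unattached cells 0, 13.54 and 15.13. The means were 7.57 ± 4.51 with reads in 11 of 14 cells and 10.10 ± 5.36 with reads in 18 of 21 cells, a difference of -2.53. In number 1 all 10 unattached cells lay between 12.60 and 15.13. In number 3 the attached cells (9.96 to 12.46) were below the unattached ones (13.55 to 13.58), while in number 5 attached cells reached from 0 to 7.44 and unattached cells from 0 to 8.43, with means that differed by 0.88 in the other direction. In LCM cells the difference was -0.06. The orphan nuclear receptor Nr5a2 averaged 5.75 ± 3.04 and 9.05 ± 2.28, a difference of -3.30 over all cells, -2.15 within numbers 3 and 5 and -0.10 in LCM cells. The forkhead factor Foxl2, which keeps the granulosa fate, differed by -1.80, -1.56 and -0.05 in the same order. Kitl, the ligand through which granulosa cells signal to the KIT receptor of the oocyte, had reads in 1 attached and 8 unattached cells, and in 6 and 17 of 35 LCM cells.

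Genes of cumulus expansion, the response to the LH surge, were absent or sparse. The list summed to 0 to 624 RPM in attached cells, with reads in 10 of 14, and to 0 to 587 RPM in unattached cells, with reads in 15 of 21, and 5 of its 11 genes were measured. Has2, which makes the hyaluronan of the expanding matrix, had 0 reads in 14 attached and 0 reads in 21 unattached cells, as did Ptgs2 and Ptx3, so that their expression was not detectable at this depth. Tnfaip6, which cross-links hyaluronan, had reads in 2 attached cells and 1 unattached cell. Vcan, the matrix proteoglycan versican, had reads in 7 and 13 cells and differed by -1.46 over all cells, 0.37 within numbers 3 and 5 and 0.20 in LCM cells. The protease Adamts1 had reads in 3 and 7 cells and differed by -0.84, 1.40 and -0.39. The 5 measured genes had medians of -0.49, 0.37 and -0.21 in the same views. Amh, a member of the granulosa identity list and a marker of small growing follicles, had reads in 2 and 3 cells.

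Oocyte transcripts stood out in 3 attached cells. The RPM of 14 oocyte genes was summed in each cell and set against the median dissociated oocyte, 33879 RPM. Attached cells reached 57.9% in number 2, 47.6% in number 6 and 14.8% in number 7, so that 3 of 14 (21.4%, exact Clopper-Pearson 95% interval 4.66 to 50.8%) were at or above 10% of an oocyte. Among unattached cells 0 of 21 were at or above 10%, which allows a share of up to 14.3% by 3 counts and 16.1% by the exact interval. The nearest cells were the unattached cell of number 6 at 6.74% and attached cells of number 2 at 5.76% and 4.10%. Both counts are small and their intervals overlap. The study judged mixed oocyte profiles in these cells by another measure, contour plots against the average oocyte over the whole transcriptome. It reported such profiles in both groups, more often in attached cells, and considered them authentic. Its counts were higher in each group than those at 10% here. The 3 cells were shallow, with 12748, 65120 and 52029 reads in the same order, and among cells with at least 100000 reads and 3000 genes 0 of 6 attached cells reached 10%.

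The 3 cells each held 13 of the 14 oocyte genes, as did the unattached cell of number 6 and unattached cells of number 1. The 3 cells also held 19, 32 and 21 of 42 genes that were high in LCM oocytes and rare in LCM granulosa cells. The unattached cell of number 6 held 18 of the 42, while the median dissociated cell of either group held 3. The 3 cells kept granulosa transcripts, with Inha at 10.94, 10.25 and 11.57 and Gja1 at 6.31, 10.25 and 10.59 in the same order. The other 11 attached cells were at 5.76% or below, and the group medians were 0.463% of an oocyte in attached and 0.456% in unattached cells. In number 1 the unattached cells lay between 0.297% and 3.44% with a median of 0.779%, and in numbers 3 and 5, which hold no oocyte library, all 13 cells of both groups were at or below 0.219%. Among LCM cells 2 of 35 neighboring and 2 of 35 non-neighboring cells reached 10%, and the medians were 1.03% and 0.365%.

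**Figure D3:**
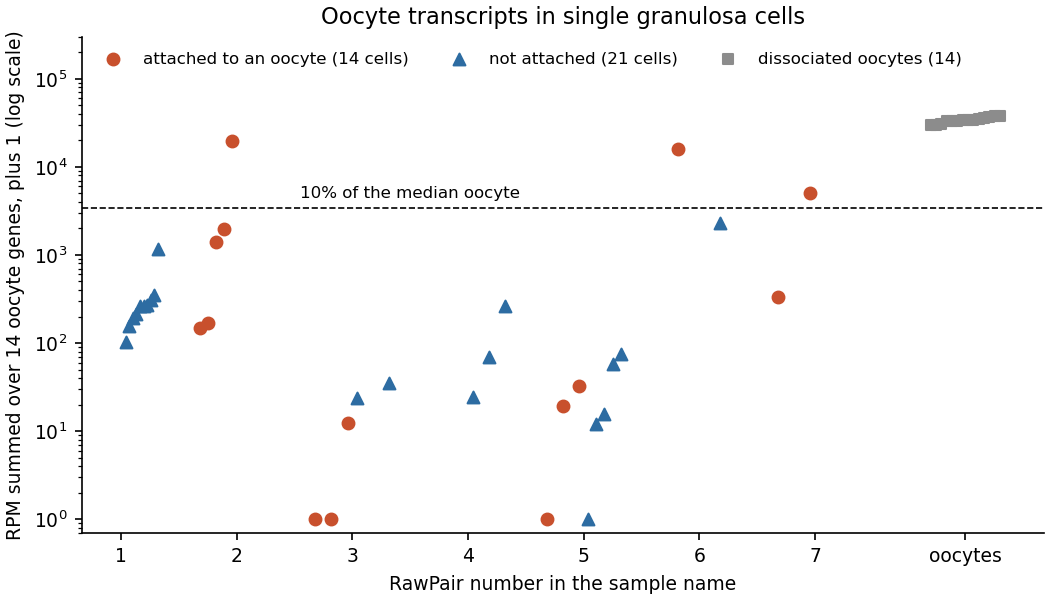
Summed RPM of 14 oocyte genes plus 1 (y axis, log scale) in each granulosa cell, by RawPair number, beside the 14 dissociated oocytes, with points sorted by level within a number. The dashed line is 10% of the median oocyte. It is crossed by 3 of 14 attached cells (circles), 1 each in numbers 2, 6 and 7, and by 0 of 21 unattached cells (triangles).

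Gdf9, the growth factor by which oocytes act on the cells around them, had reads in 8 of 14 attached and 17 of 21 unattached cells. Its lowest, median and highest levels were 0, 4.44 and 11.72 in attached and 0, 5.11 and 8.66 in unattached cells, and the difference of the means was 0.14. The summed level was 231 RPM (207 to 257) from 332 reads in attached cells, against 131 reads and an interval of 37.6 to 53.4 RPM in unattached cells. Of the 332 reads, 219 lay in the attached cell of number 6, and without it the summed level was 82.3 RPM (67.8 to 99.0). Of the 131 reads, 32 lay in the unattached cell of number 6, and without it the unattached level was 34.9 RPM (28.4 to 42.5). Without the 3 cells at or above 10% the difference for Gdf9 was -1.63, and within numbers 3 and 5 it was -3.14. All 13 measured oocyte genes were above 0 in difference over all cells, with a median of 1.04, and 1, the egg membrane receptor Izumo1r at 1.99, was past the fold. The median was -0.61 without the 3 cells, 0.00 within numbers 3 and 5, and 1.38 in LCM cells, where 14 of 14 were above 0. The 40 measured genes of the oocyte-high set had a median of 0.48, and of -0.13 without the 3 cells. Of its members highest in oocytes, the arginase Arg2 differed by 0.66, Lhx8, a transcription factor of early oocytes, by 0.80, and Mael, which acts in transposon silencing, by 1.17. Differences for Fbxw25 and 2010002M12Rik were 0.43 and 0.30. Of the 3 cells at or above 10%, those of numbers 2 and 6 share their number with an oocyte library and that of number 7 does not, and the part of this sharing was not tested.

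Genes known to respond to oocyte factors were higher in attached cells within RawPair numbers 3 and 5, and not over all cells. Over all cells the 19 measured members had a median of -0.43, with 5 above 0 and 0 past the fold. Within numbers 3 and 5, 17 of 19 were above 0 and 9 were higher past the fold against 5.3% of all genes, with a median of 1.76. In LCM cells the median was 0.49 with 14 of 20 above 0. The number of cells behind the within-number values is small, 6 attached and 7 unattached.

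The clearest members were enzymes of cholesterol synthesis. Ebp, the sterol isomerase, lay at 4.57 to 9.06 in the 3 attached cells of number 3 and at 0 in both unattached cells. In number 5 it lay at 6.15 to 7.10 in attached cells and at 0 in 4 of 5 unattached cells, the fifth at 6.33. In number 6 the order was the other way, with 0 in the attached and 3.77 in the unattached cell. Over all cells the difference for Ebp was only 0.53, since 9 of 10 unattached cells of number 1 held it and 1 of 5 attached cells of number 2 did. The squalene epoxidase Sqle differed by 2.17 within numbers 3 and 5 and the demethylase Cyp51 by 2.23, against -0.75 and -1.55 over all cells. Of all 19 cholesterol synthesis genes, 7 were higher and 1 lower past the fold within numbers 3 and 5, against 5.3% and 14.2% of all genes. Their median there was 1.14. Over all cells the median was -0.73 and in LCM cells -0.32, with 9 above 0 and 10 below.

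Glycolytic enzymes had medians above 0 within numbers 3 and 5 and in LCM cells and below 0 over all cells. Ldha, lactate dehydrogenase A, lay at 4.34, 10.25 and 12.13 in attached and 4.71, 9.83 and 10.67 in unattached cells, and the ranges overlapped. Its difference was 0.41 over all cells, 1.32 in number 3, 1.09 in number 5 and 1.60 in LCM cells. Pfkl, a phosphofructokinase, had reads in 14 of 14 attached and 15 of 21 unattached cells. It differed by 1.78 over all cells, 2.13 within numbers 3 and 5 and 0.76 in LCM cells. Pfkp, another phosphofructokinase, differed by 0.12, 2.42 and 0.83 in the same views, and Pfkm, the muscle form, by -2.18, -2.88 and -0.55. Of 15 glycolysis genes, 6 were above 0 over all cells with a median of -0.13. Within numbers 3 and 5, 11 were above 0 with a median of 0.36. In LCM cells 11 were above 0 with a median of 0.83, and 3 were higher past the fold against 0.812% of all genes.

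Receptors and SMADs of the BMP and activin pathways, by which granulosa cells sense GDF9 and BMP15, were mixed. Bmpr2, the type II receptor for both factors, had reads in 13 of 14 and 21 of 21 cells and differed by -1.80 over all cells, 0.13 within numbers 3 and 5 and 0.08 in LCM cells. The type I receptor Bmpr1a differed by 0.42, 2.79 and 0.26. Smad7, an inhibitory SMAD that the pathway itself induces, differed by 0.73, 4.12 and 2.71. Tgfbr3 and Smad2 were lower in each of these views. The co-receptor betaglycan, Tgfbr3, had reads in 1 of 14 attached and 13 of 21 unattached cells and differed by -2.71, -2.94 and -0.50. Smad2, which carries activin and GDF9 signals, differed by -2.84, -4.32 and -0.92. Of all 22 genes, 7 were lower and 0 higher past the fold over all cells, against 15.7% and 0.396% of all genes. Of genes with a group mean of at least 4, 1461 of 4167 were lower and 23 higher. The 22 genes had a median of -1.40, beside -1.37 for those genes. Within numbers 3 and 5, 4 of the 22 genes were past the fold each way, against 14.2% lower and 5.3% higher, with a median of -0.46. In LCM cells the median was 0.075, with 1 higher and 0 lower past the fold, against 0.812% and 1.11% of all genes.

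Cell cycle genes did not follow attachment across views. The 18 genes had a median of -1.11 over all cells, 0.09 within numbers 3 and 5 and 1.32 in LCM cells, where 17 of 18 were above 0. The proliferation marker Mki67 differed by 0.65, 1.58 and 1.94, and the replication helicase subunit Mcm4 by -2.61, -2.41 and 2.29. The inhibitor Cdkn1b had reads in 2 of 14 attached and 16 of 21 unattached cells and differed by -3.03, -2.06 and 0.50. The 8 genes of gap junctions and transzonal projections had medians of -0.96, 0.17 and 0.08, and 16 immediate early genes -0.51, -0.66 and -0.50.

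**Figure D4:**
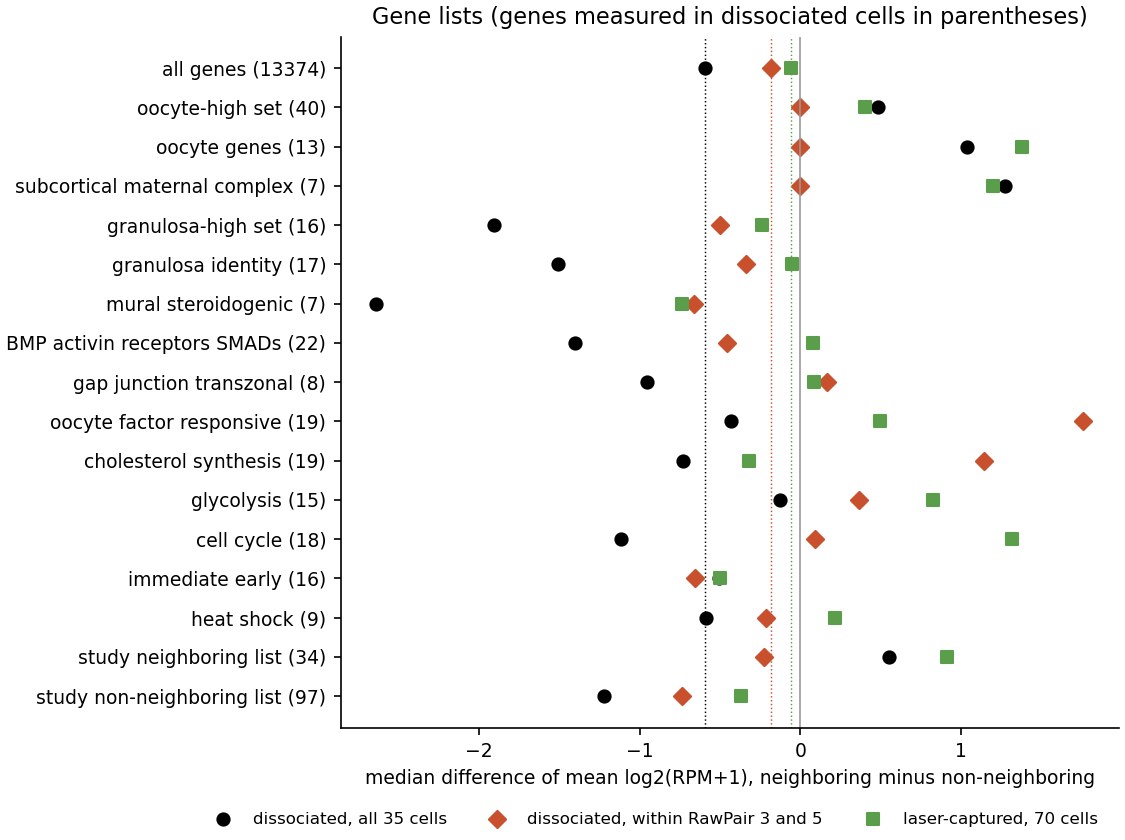
Median difference of mean log2(RPM+1), neighboring minus non-neighboring (x axis), for lists of genes (y axis, number measured in parentheses). Black circles are all 35 dissociated cells, red diamonds the average within RawPair numbers 3 and 5, and green squares the 70 LCM cells, and dotted lines mark the median of all genes in each. The mural and steroidogenic list lies left of its dotted line in all 3 views, and the oocyte-factor-responsive list lies right of it.

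Among the other genes with the largest differences, those lower in attached cells came mostly from genes that nearly all unattached cells held. Lgals1, the secreted lectin galectin-1, had 0, 2.12 and 8.94 as lowest, median and highest level in attached cells, 7 of 14 with reads, and 3.38, 7.03 and 11.33 in unattached cells, 21 of 21 with reads. It differed by -4.39 over all cells, -5.00 within numbers 3 and 5 and -2.72 in LCM cells. Acsbg1, an acyl-CoA synthetase, had reads in 3 of 14 and 15 of 21 cells and differed by -4.57, -3.94 and -3.93. The anion transporter Slc26a7 differed by -4.50, -3.16 and -1.45.

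The other 8 of the 12 genes with the largest lower values differed by -4.88 to -4.35 over all cells, and their LCM differences reached from -1.02 to 1.53. They were Gm5814, Mrfap1, Zfp292, Dstn, Erbb2ip, Uhrf2, Tmem206 and Mrps6. Mrfap1 and Gm5814 were -4.65 and -4.88 over all cells and 1.40 and 1.53 in LCM cells, and both had reads in 8 of 14 attached and 21 of 21 unattached cells. Reads shared between these similar sequences cannot be told apart from expression of both. Dstn, an actin-severing protein, was -4.49 over all cells, -1.88 among cells with at least 5000 genes and -0.04 in LCM cells. Uhrf2, a ubiquitin ligase that binds modified DNA, was -4.40, -4.03 and 0.40 in the same views.

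The gene with the steadiest higher level in attached cells was Slc39a10 (chr1:46807544-46892852, minus strand), a zinc importer. Attached cells had 3.95, 6.79 and 10.43 as lowest, median and highest level with reads in 14 of 14, and unattached cells 0, 5.88 and 7.69 with reads in 16 of 21. In number 3 the attached cells lay at 5.86, 8.09 and 9.0 and the unattached ones at 1.94 and 4.02, and in number 5 at 6.44 to 7.51 against 0 in 4 of 5 and 5.47 in the fifth. In number 6 the values were 6.95 and 6.26, so that every attached cell was above every unattached cell in each number with both groups, as for 6 genes (0.0449%) in all. Within numbers 3 and 5 alone, 9 genes (0.0673%) were ordered in this way and 18 genes (0.135%) in the other. The 10 unattached cells of number 1 were not low, at 4.57 to 7.69. The difference was 2.45 over all cells, 5.21 within numbers 3 and 5 and 1.82 in LCM cells, and 2.42 without the 3 cells at or above 10% of an oocyte. Dissociated oocytes themselves averaged 9.06 for Slc39a10.

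Another 10 genes with large higher differences were less alike across views. Tmtc1 was at 2.70 over all cells and 0.44 in LCM cells, Tmem229b at 2.65 and 0.89, and Ermp1, an endoplasmic reticulum peptidase, at 2.46, with reads in 22 and 18 of 35 LCM cells. The transcription factor Ets2 was at 2.33 and 1.06, and the cytokinesis factor Ect2 at 2.11 and 0.46. A230046K03Rik was at 2.47 and -2.31, and the laminin chain Lamb1 at 2.32 and -0.51. Nudt14 was at 2.14 and -0.77, Msto1 at 2.34 and -0.08, and Fbxw4 at 2.18 and 0.10. Within numbers 3 and 5 Msto1 and Fbxw4 were at -0.76 and -1.61, while the other 8 lay above 0, from 0.66 for Ets2 to 5.14 for Tmem229b. Ermp1, Lamb1 and Fbxw4 averaged 9.13, 8.72 and 8.55 in dissociated oocytes, and without the 3 cells their differences were 1.83, 1.72 and 1.31.

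**Figure D5:**
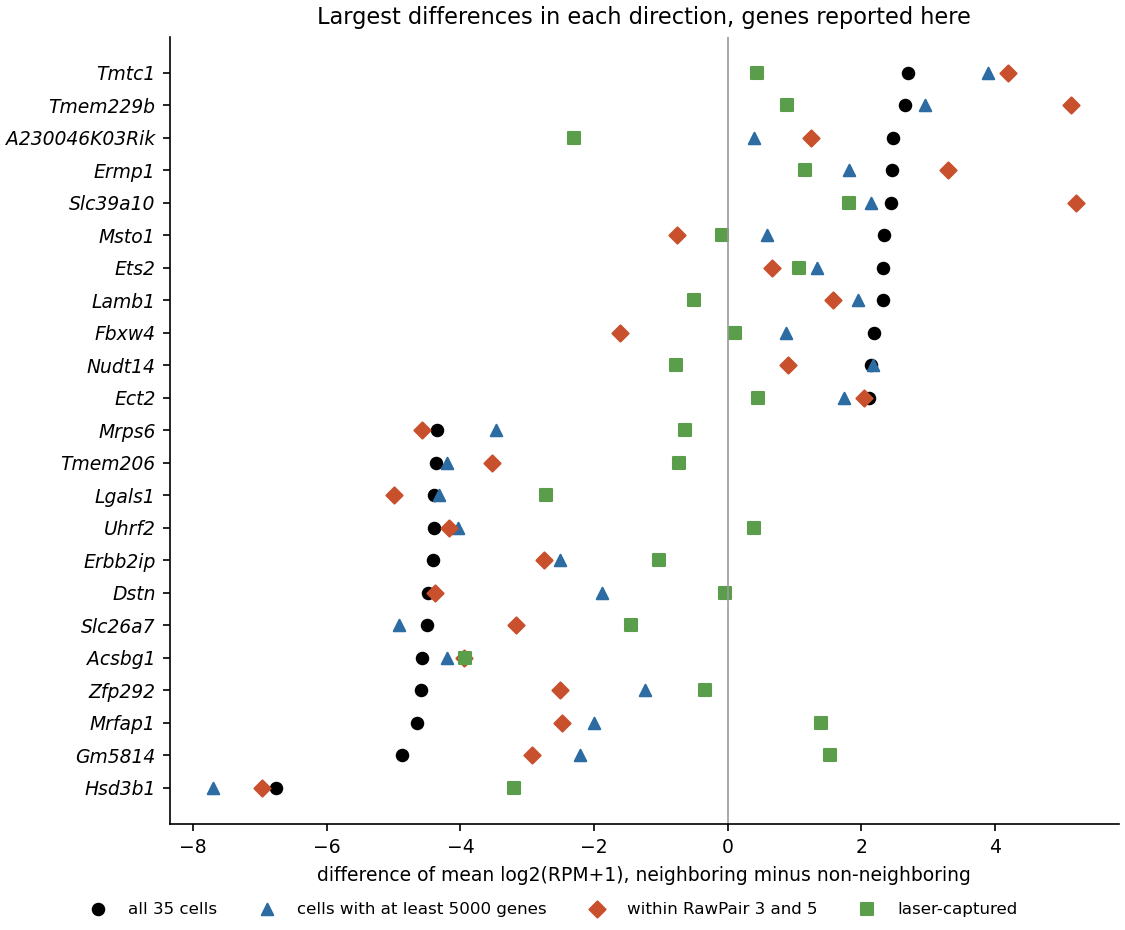
Difference of mean log2(RPM+1), neighboring minus non-neighboring (x axis), for the named genes, 11 higher and 12 lower in attached cells (y axis). Black circles are all 35 cells, blue triangles cells with at least 5000 genes, red diamonds the average within RawPair numbers 3 and 5 and green squares LCM cells. Hsd3b1, Acsbg1 and Lgals1 stay below -2 in all 4 views, while the LCM values of Mrfap1, Gm5814 and A230046K03Rik lie on the other side of 0.

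The study named genes by position in sections from other libraries, 35 for neighboring and 97 for non-neighboring cells. In the dissociated cells the neighboring genes had a median of 0.55 with 23 of 34 above 0, but -0.70 without the 3 cells at or above 10% of an oocyte and -0.23 within numbers 3 and 5. In LCM cells the median was 0.91 with 27 of 35 above 0, 6 higher and 0 lower past the fold, against 0.812% and 1.11% of all genes. The non-neighboring genes had a median of -1.23 with 86 of 97 below 0 beside 73.7% of all genes, and 31 were lower past the fold against 15.7%. Genes with a group mean of at least 4 had a median of -1.37, with 1461 of 4167 lower past the fold. Without the 3 cells the median of the non-neighboring genes was -1.03. Within numbers 3 and 5 it was -0.74, with 25 lower and 4 higher past the fold, against 14.2% and 5.3% of all genes. In LCM cells these 97 genes had a median of -0.37. Among 13 of them that the study singled out for chromatin and actin, 13 were below 0 over all cells with a median of -1.28, 9 within numbers 3 and 5 with a median of -0.78, and 10 in LCM cells with a median of -0.37. Over 4167 genes with a group mean of at least 4, the differences in dissociated and LCM cells had a Pearson r of 0.21 and a Spearman rho of 0.19, as a description across genes of 1 mouse.

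Markers of other cell types were low or absent in most cells, with a few exceptions. The theca and stroma markers had reads in 0 of 14 attached and 9 of 21 unattached cells, with a highest sum of 393 RPM. Endothelial markers had reads in 2 cells of each group, leukocyte markers in 1 and 3, smooth muscle markers in 5 and 7 and luteal markers in 4 and 12. The smooth muscle sum reached 25.6 RPM in attached cells and 4190 RPM in unattached cells, the latter in the cell of number 6 with its high Acta2. Haemoglobin took 8.70% of the reads of the attached cell of number 6, 2.27% of those of the unattached cell of number 6 and 0.655% in 1 attached cell of number 2. The 13 mitochondrial genes took 0.336% to 15.6% of the reads in attached and 1.28% to 9.88% in unattached cells, and 13.5%, 15.6% and 6.13% in the attached cells of number 3. The part of depth, RawPair number, blood and mitochondrial reads in the differences above was not tested.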

How the data were processed

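RNA was measured in 35 single granulosa cells, with 14 oocytes dissociated from the same ovary and 70 granulosa cells and 8 oocytes laser-captured from the other ovary for comparison. The deposited values are whole-number read counts per gene without normalization. They come from the 3′ ends of Smart-seq2 cDNA for dissociated cells and of DRaqL-Smart-seq2 cDNA for laser-captured cells. The authors used fastp 0.20.0, cutadapt 1.16, HISAT2 2.1.0 on GRCm38 and HTSeq 0.10.0. A read counted for a gene if it lay up to 10 kb from the annotated 3′ end. The tools are those of the submitters' processing notes. Reads carried no molecular identifiers, so copies made by amplification cannot be told apart from molecules, and a count near the 3′ end says nothing of isoforms. The methods name a limit of 100000 reads and 3000 genes for granulosa cells, and 8 attached and 7 unattached cells were under 100000 reads in the table used here.

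Counts were divided by the total over the 22060 protein-coding genes of the table and transformed as log2(RPM+1). Genes above 4 in at least 1 of the 35 cells were kept. Groups were taken from the labels, and each was treated as 1 sample, so that differences of means were ranked by size with no test. Named genes are the 12 largest differences in each direction with a group mean of at least 4, the 5 oocyte-high genes highest in oocytes, and members of gene lists, of which some are not reported here. The members, lists and rules were chosen with earlier results of these data known. Libraries were compared pairwise and 0 were identical. The computation was checked on simulated data and run in numpy 2.4.6, scipy 1.17.1, pandas 2.3.3 and matplotlib 3.10.9 under python 3.11.15, with TMM factors from edgeR 4.0.16 in R 4.3.3 for an alternative scaling. Alternatives changed the pseudocount, scaling, filter, depth and the cells included.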

Additional observations from a re-analysis of the deposited data

How the results depend on the processing

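No result came from a test, so that settings change sizes and counts and not calls. The number of genes past the fold, 53 higher and 2103 lower in attached cells, depended on most choices. Adding 0.1 to RPM in place of 1 gave 256 and 4210, and adding 10 gave 2 and 199. A difference of 1 in place of 1.8 gave 492 and 4814, and a difference of 3 gave 1 and 270. Higher genes numbered 82 with TMM scaling, 23 with a group mean of at least 4, 199 after thinning to the shallowest cell and 456 in RawPair numbers without an oocyte library. The ratio of summed counts gave 948 higher genes, 30.5% of those past the fold against 2.46% by means of log values. Cells with at least 100000 reads and 3000 genes gave 129 and 3168. Averages within the RawPair numbers 3, 5 and 6 gave 1701 and 818, a median over all genes of 0.16, a median of -0.31 for genes high in granulosa cells of the LCM libraries and of 0.044 for the non-neighboring genes of the study. Alternatives chosen after seeing the data gave 455 and 1106 in cells with at least 5000 genes and 709 higher genes within numbers 3 and 5, where the granulosa-high median was -0.50. That median was -1.91 over all cells and -0.35 without numbers that hold an oocyte library. With a group mean of at least 4 the median of all genes was -1.37 and that of the study's neighboring genes -1.03, and the latter was -1.18 in cells with at least 100000 reads and 3000 genes. Leaving out 1 cell at a time gave 33 to 88 higher and 1776 to 2468 lower genes.

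Attached cells at or above 10% of an oocyte numbered 0 in cells with at least 100000 reads and 3000 genes, 1 in numbers without an oocyte library and 1 in numbers with both groups. At 5% of an oocyte 4 of 14 attached cells and 1 of 21 unattached cells passed. In LCM cells 6 of 35 neighboring and 3 of 35 non-neighboring cells did. Among 41 named genes, 27 kept the sign of their difference in each of 15 alternatives. Msto1 reversed to -0.50 within numbers 3, 5 and 6 and to -0.76 within 3 and 5, and Fbxw4 to -1.61 within 3 and 5. Inhba was 0.77 and Nppc 0.68 in numbers without an oocyte library. The cause of these changes was not tested. A total over all genes was not run, since the table used here holds protein-coding genes. No paired analysis was possible because the numbers shared between groups do not pair single cells and no test was made; the averages within RawPair numbers describe cells that share a number. Leaving out the cell with the most reads of a gene, an alternative chosen after seeing the data, moved the bound of Cyp11a1 from 30.6-fold to 18.1-fold, that of Lhcgr from 11.5-fold to 5.14-fold and the summed Gdf9 of attached cells from 231 to 82.3 RPM. Depth limits genes near 1 read per cell, and 1 mouse gives no variation between animals.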

Other observations

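Counting only genes whose difference exceeded 1.8 in size over all cells, among cells with at least 5000 genes and within RawPair numbers 3 and 5, 278 of 4167 genes with a group mean of at least 4 were lower and 9 higher in attached cells. This rule was set after the values were seen, and the views share cells. Of these, 11 were also lower and 3 also higher past the fold in the LCM cells, which share no cell with them but come from the same mouse. Over the same 4167 genes 1.13% were lower and 1.42% higher past the fold in the LCM cells. The lower ones include Hsd3b1, Lgals1 and Acsbg1. Me1, the cytosolic malic enzyme that supplies NADPH, differed by -3.47 over all cells and -1.95 in LCM cells. Anxa3, an annexin, differed by -3.51 and -2.50, with reads in 3 of 14 attached and 15 of 21 unattached cells. Cited2, a transcriptional co-regulator, differed by -3.59 and -1.96, Prss23, a secreted protease, by -3.53 and -2.75, and Ddit4l, an inhibitor of mTOR signalling, by -3.96 and -1.85. Itfg3 and Frmd5 were at -3.07 and -1.89 and at -2.70 and -1.91. The higher genes include Slc39a10 and Fam46c, the latter at 1.84 and 2.76, with a mean of 10.94 in dissociated oocytes.

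The intermediate filament gene Vim differed by -3.60 over all cells and by -1.38 in LCM cells, and every attached cell was below every unattached cell within numbers 3, 5 and 6. Like Lgals1, it had reads in most unattached cells, 18 of 21, against 6 of 14 attached cells. Vim was chosen after its values were seen. The heat shock list of 9 genes had medians of -0.59 over all cells, -0.22 within numbers 3 and 5 and 0.21 in LCM cells, and the 8 genes that respond to cAMP, to an analogue of which all dissociated cells were exposed, had medians of -0.36, -0.52 and -0.24.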
